A study of Mus musculus with 4 samples.

Results

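The genes of glycolysis and glycogen metabolism were followed through the open chromatin of 4 mouse muscles, as 37 genes chosen by name from the pathway. Their members were the ATAC-seq peaks whose deposited nearest gene was one of the 37, which came to 377 of the 120839 peaks in the 4 lists. All 37 genes had at least 1 peak. ATAC-seq marks accessible DNA by the insertion of sequencing adapters by the Tn5 transposase. The muscles were the extensor digitorum longus (EDL) and the quadriceps (Quad), which are mostly fast, the soleus (Sol), a slow and oxidative muscle, and the diaphragm (Dia), which contracts throughout life. All came from wild type, sedentary C57BL/6 mice, and whole frozen muscle was powdered before transposition, so nuclei of every cell type in the tissue contributed. Each muscle had 1 list, from a library that the labels call pooled, without a number of animals. There was thus no replicate check of any difference between muscles and no p-value was computed. In such bulk tissue, fewer nuclei of a type and less signal per nucleus cannot be told apart.

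Glycolysis splits glucose into pyruvate in the cytosol and yields ATP without oxygen, and lactate dehydrogenase turns the pyruvate into lactate, which monocarboxylate transporters carry across the membrane. Glycogen is the muscle's own store of glucose, built by glycogen synthase and the branching enzyme and broken down by glycogen phosphorylase when a fibre contracts. Fast fibres are known for high activity of these enzymes, and several steps have a muscle isoform beside a broadly expressed one. A promoter peak is one annotated by the authors as lying at a transcription start site (TSS), from 1 kb upstream to 100 bp downstream; every other peak, in introns, at gene ends or between genes, is called non-promoter here.

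The sequences below are those the results turn on, all from the GRCm38 assembly (mm10) and written 5′ to 3′ on the strand of the gene. Capitals mark any match to the motifs searched, which were the MEF2 site, CACGTG (an E-box), ACGTG (the core of the hypoxia response element, which lies within the E-box), the nuclear receptor half-site AAGGTCA, then GGGCGG (the GC box) and the NFAT core TGGAAA, each on both strands. The first set holds the 250 bases upstream of the RefSeq start of 4 genes, shown because Ldhb and Ppp1r3c had the largest differences between muscles in promoter score, and because Pgam2 and Ppp1r3a held a MEF2 site. The capitals are a match to TGGAAA in Ldhb, to CACGTG and ACGTG in Ppp1r3c and to MEF2 in Pgam2 and Ppp1r3a.
Ldhb (chr6:142507958-142508207, minus strand): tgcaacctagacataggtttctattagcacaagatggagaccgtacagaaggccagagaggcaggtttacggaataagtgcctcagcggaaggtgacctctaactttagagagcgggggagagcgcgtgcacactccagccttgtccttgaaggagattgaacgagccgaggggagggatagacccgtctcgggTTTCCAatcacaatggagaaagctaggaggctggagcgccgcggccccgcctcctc
Ppp1r3c (chr19:36736605-36736854, minus strand): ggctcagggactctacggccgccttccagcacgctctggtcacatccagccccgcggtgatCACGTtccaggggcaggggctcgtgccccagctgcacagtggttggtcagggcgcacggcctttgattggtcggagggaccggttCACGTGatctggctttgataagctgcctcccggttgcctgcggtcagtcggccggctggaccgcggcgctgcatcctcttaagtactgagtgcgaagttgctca
Pgam2 (chr11:5803797-5804046, minus strand): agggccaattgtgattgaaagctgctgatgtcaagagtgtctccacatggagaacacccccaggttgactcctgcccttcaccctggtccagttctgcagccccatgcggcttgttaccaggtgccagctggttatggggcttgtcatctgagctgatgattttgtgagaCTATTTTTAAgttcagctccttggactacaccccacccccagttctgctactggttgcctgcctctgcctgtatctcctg
Ppp1r3a (chr6:14755275-14755524, minus strand): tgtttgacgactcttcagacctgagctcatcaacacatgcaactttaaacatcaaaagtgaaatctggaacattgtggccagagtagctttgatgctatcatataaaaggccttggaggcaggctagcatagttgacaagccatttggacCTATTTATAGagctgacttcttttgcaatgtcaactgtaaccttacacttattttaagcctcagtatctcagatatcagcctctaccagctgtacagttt

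The next set holds the 4 highest-scored intronic regions that had a peak in EDL and in Quad and none in Sol or Dia, and last the one high-scored intronic peak found in Sol alone, in Gys1. For Slc16a3, Tpi1 and Gpi1 the stretch is the overlap of the EDL and Quad peaks, for Pfkm it is the exon-free part of the EDL peak and for Gys1 the whole Sol peak. Gpi1 held a match to AAGGTCA, Gys1 matches to CACGTG and ACGTG, and the stretches printed for the other 3 held none of the motifs.
Slc16a3 (chr11:120952096-120952260, plus strand): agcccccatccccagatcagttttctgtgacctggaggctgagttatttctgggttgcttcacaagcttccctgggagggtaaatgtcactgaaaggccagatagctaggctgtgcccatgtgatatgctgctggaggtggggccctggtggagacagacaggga
Tpi1 (chr6:124813026-124813171, minus strand): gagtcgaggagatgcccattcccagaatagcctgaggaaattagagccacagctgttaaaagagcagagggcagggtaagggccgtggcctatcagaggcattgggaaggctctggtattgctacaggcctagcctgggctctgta
Gpi1 (chr7:34215602-34215790, minus strand): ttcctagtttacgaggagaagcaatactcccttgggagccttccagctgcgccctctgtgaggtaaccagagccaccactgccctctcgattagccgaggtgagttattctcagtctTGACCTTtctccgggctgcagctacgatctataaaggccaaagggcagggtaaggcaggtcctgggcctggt
Pfkm (chr15:98119471-98119586, plus strand): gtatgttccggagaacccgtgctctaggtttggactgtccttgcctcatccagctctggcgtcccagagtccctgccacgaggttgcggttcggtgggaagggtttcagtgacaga
Gys1 (chr7:45437877-45438083, plus strand): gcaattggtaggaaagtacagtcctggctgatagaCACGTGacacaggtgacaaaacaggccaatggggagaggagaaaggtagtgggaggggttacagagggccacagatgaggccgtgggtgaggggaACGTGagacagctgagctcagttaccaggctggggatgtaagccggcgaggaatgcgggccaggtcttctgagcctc

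The lists were of unequal length, with 30136, 40337, 28784 and 21582 peaks in EDL, Quad, Sol and Dia. The scores, if scaled to 10 M (mega) tags, correspond to totals of 104, 78.1, 105 and 99.3 M tags in EDL, Quad, Sol and Dia, so EDL and Sol were close both in depth and in length. Peaks were also counted among the 20000 highest-scored of each list. Of the fibre markers, Myh4, the fast IIb myosin heavy chain, had a promoter peak in EDL and Quad and none in Sol or Dia, and Myh7, the slow myosin heavy chain, had 2 peaks in Sol and none elsewhere. The 8 fast-fibre markers together had 5, 13, 5 and 3 peaks in EDL, Quad, Sol and Dia, and the 9 slow-fibre markers 5, 4, 17 and 5. Markers of other cells were also listed. The 5 endothelial genes had 29, 30, 29 and 18 peaks and the 5 fibroblast genes 15, 19, 10 and 2. Leukocyte genes had 3, 4, 1 and 0, satellite cell genes 2, 6, 3 and 1, red blood cell genes 1, 1, 1 and 0 and adipocyte genes 1, 0, 0 and 2. Their part in the results was not tested.

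Most of the pathway had an open promoter in every muscle. In EDL 30 of the 37 genes had a promoter peak (81.1%), the Quad list also had 30 (81.1%), the Sol list 29 (78.4%) and the Dia list 28 (75.7%). Across 21887 protein-coding genes the shares were 38.6%, 42.3%, 38.4% and 37.8% in EDL, Quad, Sol and Dia. In all 4 lists the promoter was present for 25 of the 37 (67.6%), against 30.8% of all genes. By position, 29 of the 38 merged promoter regions of the pathway had a peak in all 4 lists (76.3%), against 66.1% of all promoter regions. Only 3 genes, Gys1, Gbe1 and Slc16a3, had no promoter peak under their own name in any list.

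Presence differed among muscles for 9 genes. Eno3, the muscle enolase, had a promoter peak in Quad alone, at percentile 87.1 of the Quad scores and 523 bp upstream of the TSS. A score percentile is the rank of a peak's score within its own list, with 100 for the highest. Fbp2, the muscle fructose bisphosphatase, had one in Sol alone at percentile 52.8, and Pfkfb1, a kinase and phosphatase that sets the level of fructose 2,6-bisphosphate, in EDL alone at percentile 33.0. Pfkfb1 has more than 1 annotated start, and at another of them a peak named for the neighbouring gene Apex2 was listed in all 4 muscles, at percentiles 24, 73.3, 14.5 and 32.7 in EDL, Quad, Sol and Dia. Eno3 thus stood high in the one list that had it, Fbp2 lay in the middle of its list, and a start of Pfkfb1 had accessible DNA listed in every muscle. Aldoc, the aldolase of brain, was listed in Quad (49.4) and Dia (53.4). Phkg1, the catalytic subunit of muscle phosphorylase kinase, was listed in EDL (58.7), Quad (68.2) and Dia (42.9), and not in Sol. Ppp1r3a, which tethers protein phosphatase 1 to glycogen, was listed in EDL (66.4), Quad (57.9) and Sol (57.8), and not in Dia. These 3 promoters had peaks of middle rank wherever they were listed.

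For the other 3 genes too the naming of peaks bears on the gap. Tpi1, triosephosphate isomerase, had promoter peaks in EDL (90.5), Quad (92.9) and Sol (85.1), and in Dia a peak of the same gene at percentile 80.5 overlapped that region under another annotation class. Phkb, a regulatory subunit of phosphorylase kinase, had its own promoter peak in EDL (43.2) and Sol (39.3), and in Quad and Dia the peak at its TSS, at percentiles 70.5 and 50.6, carried the name of the neighbouring gene Itfg1. Gyg, glycogenin, the primer of glycogen synthesis, had a promoter peak in Dia alone (48.7), and peaks in its first intron in EDL (50.7), Quad (78.9) and Sol (56.1), which were centred between 376 and 485 bp past the TSS. So for these 3 genes accessible DNA was listed at or close to the start in all 4 muscles.

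Of the 3 genes without a named promoter peak, Gys1 and Gbe1 had a peak at or close to the start in all 4 lists and Slc16a3 did not. A peak named for Ruvbl2 was centred less than 1 kb upstream of the TSS of Gys1, muscle glycogen synthase, without reaching it. Its percentile was 99.0, 98.6, 95.9 and 97.5 in EDL, Quad, Sol and Dia. Gbe1, the branching enzyme, had a peak in its first exon or first intron at percentile 88.0, 93.4, 85.6 and 87.1 in EDL, Quad, Sol and Dia, centred 126 to 484 bp past the TSS. Slc16a3, the lactate exporter MCT4, had its nearest peak in all 4 lists about 2 kb from the TSS, in intron 1 by the deposited annotation. It stood at percentiles 84.3, 93.5, 74.7 and 67.5 in the order EDL, Quad, Sol and Dia. The stretch common to the 4 peaks overlapped 1 RefSeq exon. When any peak at a RefSeq TSS was counted whatever its name, 29, 31, 29 and 30 of the 37 genes had one in EDL, Quad, Sol and Dia.

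**Figure D1:**
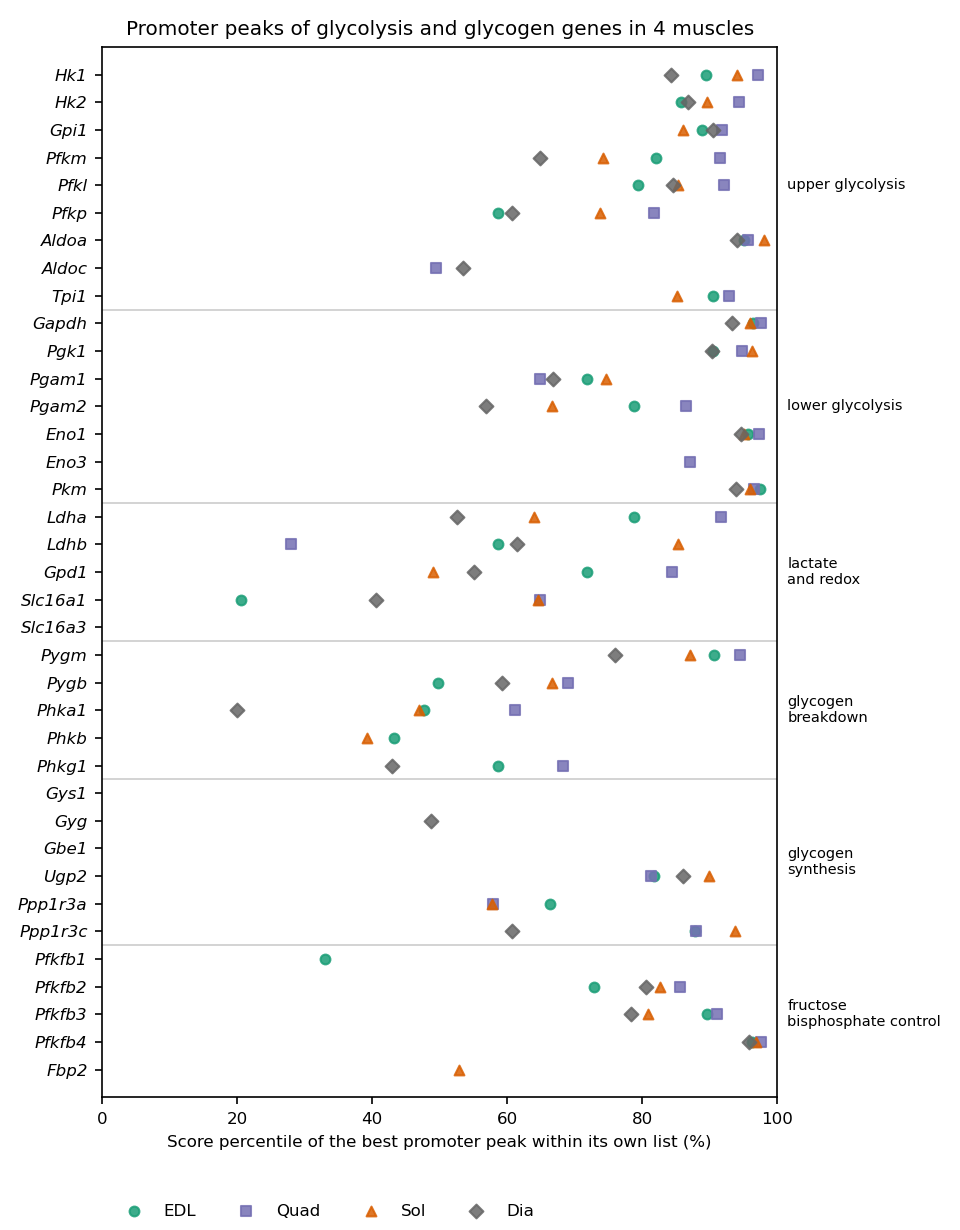
Score percentile of the best promoter peak within its own list (x axis, percent) for each of the 37 genes (y axis, grouped by role), with 1 symbol per muscle and none where no promoter peak carried the gene's name. Aldoa, Gapdh, Eno1, Pkm and Pfkfb4 sit at percentile 93.3 or higher in every list, while Ldhb runs from 28.0 in Quad to 85.3 in Sol.

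Where a promoter peak was present it tended to stand in the upper part of its list. The median percentile was 80.6, 89.6, 85.1 and 71.4 in EDL, Quad, Sol and Dia, against 77.1, 82.1, 76.6 and 74.6 over all genes with a promoter peak. Dia was thus the one list in which the pathway's median lay below that of all genes. The intervals on the pathway's medians were wide, at 71.8 to 89.4 in EDL and 81.7 to 92.9 in Quad. They were 66.7 to 89.9 in Sol and 59.2 to 86.1 in Dia. Each interval held the median of all genes, so in no list was the pathway's median set apart from it. Pathway genes above the all-gene median numbered 18 of 30, 20 of 30, 17 of 29 and 14 of 28 in EDL, Quad, Sol and Dia.

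In upper glycolysis, which carries glucose to triose phosphates, 7 of 9 genes had a promoter peak in all 4 lists. Hk2, the insulin-regulated muscle hexokinase, stood at percentiles 85.7, 94.3, 89.6 and 86.8 in EDL, Quad, Sol and Dia, and the broad isoform Hk1 at 89.4, 97.2, 94.1 and 84.3. The Hk1 peaks were annotated to the start of transcript NR_038038 and centred 133 to 163 bp past the TSS. By position, Hk1 had no peak within the promoter window of its RefSeq starts in any list. Pfkm, the muscle phosphofructokinase, stood at 82.1, 91.5, 74.2 and 64.9, while Pfkl, the liver form, stood at 79.4, 92.1, 85.3 and 84.6 and Pfkp, the platelet form, at 58.7, 81.7, 73.7 and 60.7. Among these 3 isoforms, Pfkm alone ranked higher in EDL than in Sol. Gpi1, which isomerises glucose 6-phosphate, kept between 86.1 and 91.8 and Aldoa, the muscle aldolase, between 94.0 and 98.0.

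In lower glycolysis, the ATP-yielding steps, 6 of 7 genes had a promoter peak in all 4 lists. Gapdh ranged from 93.3 to 97.6, Eno1, the broad enolase, from 94.7 to 97.3, Pkm, pyruvate kinase, from 93.9 to 97.4 and Pgk1, phosphoglycerate kinase, from 90.4 to 96.3. These 4 were near the top of every list. The 2 phosphoglycerate mutases ran in different orders. Pgam2, the muscle form, stood at 78.8, 86.5, 66.7 and 56.8 in EDL, Quad, Sol and Dia, and Pgam1, the broad form, at 71.8, 64.9, 74.7 and 66.8.

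The 2 lactate dehydrogenase genes differed most in their order among muscles. Ldha, the form that prevails in fast muscle, had promoter scores of 11.3, 16.5, 8.79 and 7.76 in EDL, Quad, Sol and Dia, at percentiles 78.8, 91.7, 63.9 and 52.5. Ldhb, the form that prevails in heart, had 7.89, 4.99, 13.3 and 8.86 in EDL, Quad, Sol and Dia, at percentiles 58.7, 28.0, 85.3 and 61.4. Ldha also had a second promoter peak in EDL alone, 125 bp upstream of another annotated start, at percentile 69.0 with 97 inferred tags. By its best peak Ldha was highest in Quad, where Ldhb was lowest. In Sol and Dia Ldhb ranked above Ldha, the reverse of EDL and Quad. Gpd1, which makes glycerol 3-phosphate and reoxidises NADH, stood at 71.8, 84.4, 49.0 and 55.1. Slc16a1, the lactate carrier MCT1, stood at 20.5, 64.9, 64.6 and 40.5, lowest in EDL.

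In glycogen breakdown, Pygm, the muscle phosphorylase, stood at 90.6, 94.5, 87.1 and 76.0 in EDL, Quad, Sol and Dia, above the brain form Pygb at 49.7, 69.0, 66.7 and 59.2. Phka1, a regulatory subunit of phosphorylase kinase, stood at 47.6, 61.1, 46.9 and 20. In glycogen synthesis, Ugp2, which makes UDP-glucose, stood at 81.7, 81.3, 89.9 and 86.1. Ppp1r3c, a second glycogen-targeting subunit of protein phosphatase 1, stood at 87.8, 88.0, 93.7 and 60.7, so that Dia lay apart from the other 3. Of the bifunctional enzymes that set fructose 2,6-bisphosphate, Pfkfb4 kept between 95.8 and 97.6, Pfkfb2 between 72.9 and 85.6, and Pfkfb3 stood at 89.6, 91.1, 80.8 and 78.4.

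To compare muscles, each gene's highest promoter score was divided by the median over the 6752 genes listed in all 4 muscles. That median was 11.7, 13.7, 11.9 and 11.9 in EDL, Quad, Sol and Dia. Intervals on the ratios are exact 95% binomial intervals on the inferred tags and cover counting error only. None of the 25 pathway genes was 1.5-fold or more higher in EDL than in Sol (1.9% of all genes were), and 2 were in the other direction, Ldhb and Slc16a1 (1.64%). In Quad against Sol, Ldha and Gpd1 were higher by that limit in Quad (2 of 25, against 1.6% of all genes) and Ldhb and Ugp2 in Sol (2 of 25, against 2.25%). Without scaling, the Sol call of Ugp2 was lost, at a Quad over Sol ratio of 0.76, and Pfkm passed the limit in Quad, at 1.58. Each of these counts rests on at most 2 genes. The median ratio was 0.95 for EDL over Sol and 1 for Quad over Sol, against 1.02 and 1 over all genes. By sign alone, 10 of 25 were higher in EDL than in Sol (53.7% of all genes) and 12 in Quad than in Sol (48.8%).

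Ldhb had the lowest Quad over Sol ratio, 0.33 (0.22 to 0.47), and none of the 6752 genes had a lower one; its EDL over Sol ratio was 0.6 (0.45 to 0.8). Ldha had 1.63 (1.24 to 2.16) in Quad over Sol and 1.31 (0.98 to 1.73) in EDL over Sol, its second EDL peak left out. The paired isoforms thus lay on opposite sides of 1 in both comparisons, although for Ldha in EDL the interval reached below 1. Gpd1 had 1.56 (1.14 to 2.13) in Quad and 1.41 (1.04 to 1.93) in EDL. The muscle isoforms Pfkm, with 1.37 (1.05 to 1.78) in Quad and 1.18 (0.91 to 1.54) in EDL, and Pgam2, with 1.29 (0.97 to 1.71) and 1.25 (0.94 to 1.65), were on the same side. So were Pygm, with 1.2 (0.95 to 1.52) in Quad, Tpi1, with 1.21 (0.96 to 1.53) in EDL, and Pfkfb3, with 1.29 (1.01 to 1.64) in EDL, and of these 5 genes only Pfkm in Quad and Pfkfb3 in EDL had an interval that left out 1.

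On the Sol side, Slc16a1 had an EDL over Sol ratio of 0.55 (0.38 to 0.78), but 0.81 (0.58 to 1.13) in Quad. Ugp2 had 0.66 (0.51 to 0.86), Ppp1r3c 0.68 (0.54 to 0.87), Pgam1 0.69 (0.5 to 0.94) and Aldoa 0.74 (0.61 to 0.91) in Quad over Sol. All 4 of those intervals stayed below 1. In EDL over Sol, Pgk1 had 0.75 (0.61 to 0.92), and the broad isoforms Pygb and Pfkp had 0.77 (0.56 to 1.05) and 0.78 (0.58 to 1.05), both with intervals that reached past 1.

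**Figure D2:**
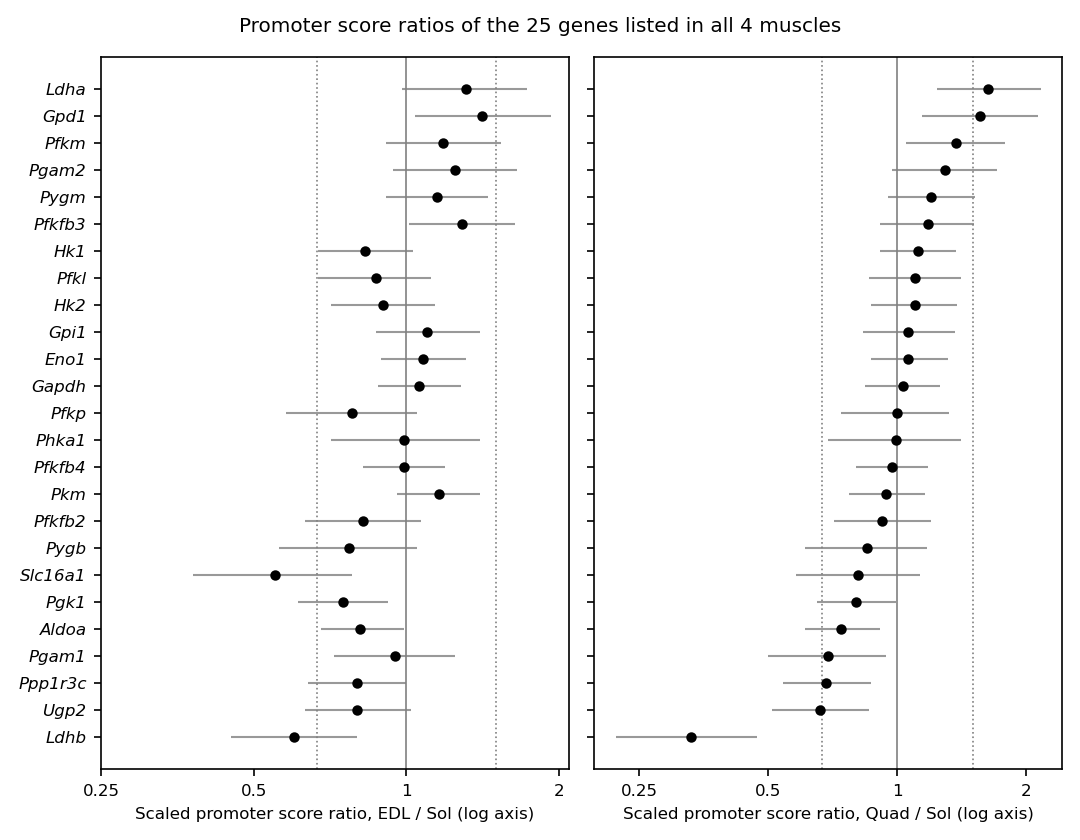
Scaled promoter score ratios (x axes, log scale) of EDL over Sol and Quad over Sol for the 25 genes with a promoter peak in all 4 lists, ordered by the Quad over Sol ratio; points are ratios, bars exact 95% intervals for counting error, dotted lines the 1.5-fold limit. Ldha and Gpd1 lie highest in Quad over Sol, and Ldhb, at 0.33, lies apart from the others.

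Between the 2 fast muscles, Ldhb alone was 1.5-fold higher in EDL than in Quad, at 1.85 (1.25 to 2.78), 1 of 25 against 3.08% of all genes, and none was higher in Quad than in EDL by that limit (2.49%). By sign, 12 of 25 were higher in EDL than in Quad (56.1%). Between Sol and Dia, Ldhb, at 1.5 (1.14 to 1.98), and Ppp1r3c, at 2.07 (1.59 to 2.69), were higher in Sol by that limit (2 of 25, against 1.47%). None was 1.5-fold higher in Dia (2.31%). Here 19 of 25 were higher in Sol (51.2% of all genes) and the median ratio was 1.11, against 1.01 over all genes, so that, relative to genes in general, the pathway's promoters scored lower in Dia than in Sol.

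Away from promoters the pathway had 68, 84, 59 and 38 peaks in EDL, Quad, Sol and Dia. Per 1000 non-promoter peaks of the list these were 3.26, 2.8, 3.01 and 3.0, so the raw numbers followed the lengths of the lists. With each list cut to its 20000 best-scored peaks, 55, 49, 44 and 36 remained in EDL, Quad, Sol and Dia, or 4.68, 4.31, 3.78 and 3.21 per 1000. Among the top 10000 they were 29, 28, 19 and 14, or 6.86, 7.26, 4.6 and 4.31 per 1000. Among the top 10000 the exact 95% interval ran from 4.6 to 9.83 per 1000 in EDL, 4.83 to 10.5 in Quad, 2.77 to 7.17 in Sol and 2.36 to 7.21 in Dia. The shares of strong peaks were higher in the 2 fast muscles, but these intervals, which cover counting error only, overlapped, and over all peaks the shares did not differ in that way.

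Counted by gene, 14 of the 37 had more non-promoter peaks in EDL than in Sol (21.9% of genes with any peak did) and 9 had more in Sol (18.2%). In Quad against Sol, 20 had more in Quad (40.0%) and 4 more in Sol (11.2%), and genes in general likewise had more in Quad, the longer list. At 20000 peaks per list, 15 had more in EDL than in Sol (40.5%, against 13.3%) and 8 more in Sol (21.6%, against 12.9%). In Quad against Sol, 14 had more in Quad (37.8%, against 13.7%) and 8 more in Sol (21.6%, against 14.2%). The pathway's shares thus lay above those of all genes in both directions. The background included genes without a non-promoter peak, and the number of peaks per gene was not matched. At equal length 12 genes had more in both EDL and Quad than in Sol. They were Hk2, Gpi1, Aldoa and Tpi1 of upper glycolysis, Pgk1, Ldha, Gpd1, Slc16a3 and Fbp2, and Pygm, Phkb and Phkg1 of glycogen breakdown. Such genes made up 7.42% of all genes with any peak. Another 6, Ldhb, Phka1, Gys1, Gbe1, Ppp1r3c and Slc16a1, had more in Sol than in either, against 9.73% of all genes with any peak.

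**Figure D3:**
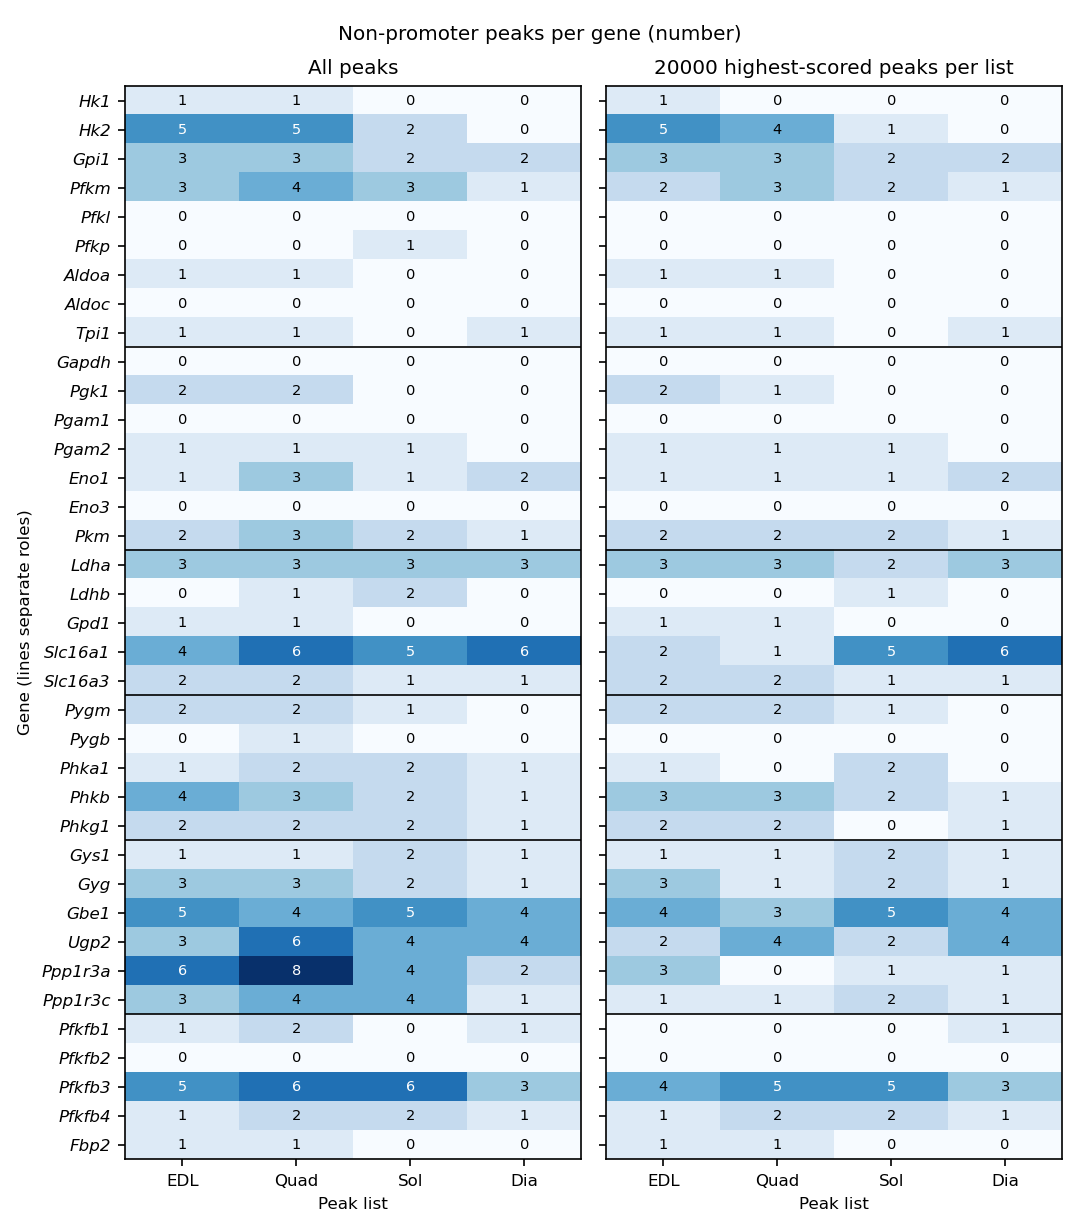
Number of non-promoter peaks of each gene (y axis, lines separate the roles) in each peak list (x axis), over all peaks on the left and among the 20000 highest-scored peaks of each list on the right; darker cells hold more peaks. In upper glycolysis the EDL and Quad columns hold 14 and 15 peaks against 8 in Sol and 4 in Dia over all peaks.

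By role, upper glycolysis had 14, 15, 8 and 4 non-promoter peaks in EDL, Quad, Sol and Dia, and at 20000 peaks per list 13, 12, 5 and 4. Glycogen synthesis had 21, 26, 21 and 13, and at equal length 14, 10, 14 and 12. Lactate and redox genes had 10, 13, 11 and 10, and at equal length 8, 7, 9 and 10. In these 2 groups EDL and Quad did not exceed Sol at equal length. Glycogen breakdown had 9, 10, 7 and 3, and at equal length 8, 7, 5 and 2. Lower glycolysis had 6, 9, 4 and 3, and at equal length 6, 5, 4 and 3. The enzymes that set fructose bisphosphates had 8, 11, 8 and 5, and at equal length 6, 8, 7 and 5. The gap between the fast muscles and Sol at equal length was thus widest in upper glycolysis, with 13 and 12 peaks against 5. Hk2 alone held 5 and 4 of these peaks in EDL and Quad against 1 in Sol. These counts by role stand without a share over all genes.

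When overlapping peaks of the 4 lists were joined, the pathway had 119 non-promoter regions. Of these, 24 had a peak in all 4 lists (20.2%, against 16.0% of all 42140 non-promoter regions) and 20 in EDL and Quad only (16.8%, exact 95% interval for counting error 10.6% to 24.8%, against 9.57%). A peak in Sol only was found for 14 (11.8%, against 10.4%), in Quad only for 22 (18.5%, against 26.9%) and in Sol and Dia only for 1 (0.84%, against 1.34%). At 20000 peaks per list the pathway had 89 regions, with 17 in all 4 lists (19.1%, against 20.6%) and 14 in EDL and Quad only (15.7%, interval 8.88% to 25%, against 7.04%). Those in Sol only were 11 (12.4%, against 10.8%), in Quad only 8 (8.99%, against 9.9%) and in Sol and Dia only 2 (2.25%, against 4.21%). The share found in EDL and Quad only lay above that of all regions at both lengths, while the shares in all 4 lists and in Sol only lay near theirs.

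**Figure D4:**
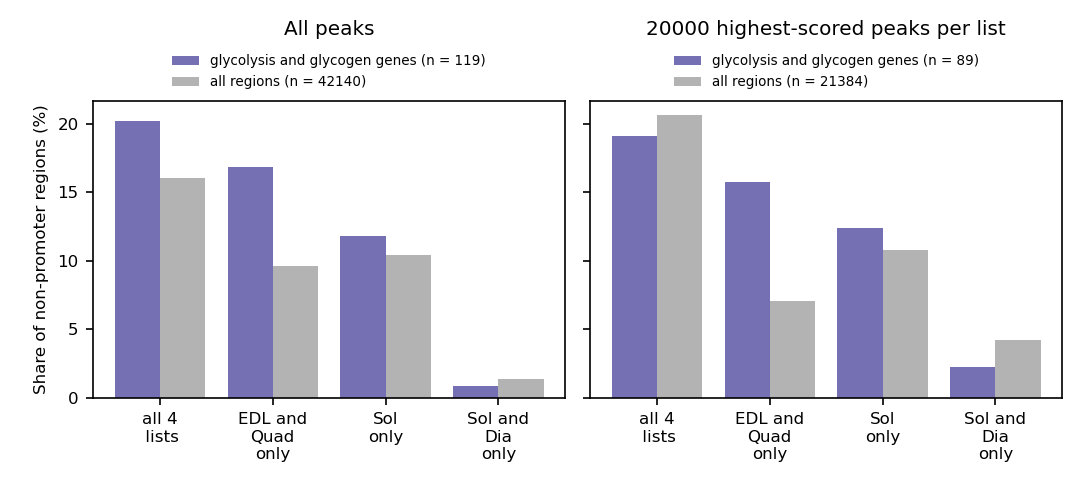
Share of non-promoter regions (y axis, percent) by the set of lists that held a peak (x axis), for the pathway and for all regions, over all peaks (left) and the 20000 highest-scored peaks of each list (right). Regions found in EDL and Quad only made up 16.8% of the pathway's regions against 9.57% of all, and 15.7% against 7.04% at equal length.

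The 20 regions found in EDL and Quad only belonged to 15 genes, and 8 of them to upper glycolysis. A peak in the upper part of its list, at percentile 50 or over, was present in 14 of the 20 (70.0%), against 43.6% of all regions of this kind. The nearest Sol peak lay between 898 and 39523 bp away, with a median of 7639 bp, and within 1 kb for 2 of them, Slc16a3 and Tpi1. By annotation 14 lay in introns or exons and 6 between genes.

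The highest was in intron 1 of Slc16a3, 3133 bp past the TSS in EDL, at percentile 89.7 in EDL and 87.1 in Quad, with 158 and 108 inferred tags; the sequence is given above. In intron 4 of Pfkm the peaks stood at 90.6 and 78.4, in intron 9 of Gpi1 at 84.5 and 84.4 and in intron 1 of Tpi1 at 86.4 and 82.1. These 4 were all strong peaks in both fast muscles. Hk2 had 3 such regions, in intron 2 (68.4 and 80.4), in intron 1 (54.4 and 50.8) and 32740 bp upstream in EDL (56.1 and 69.0). Phkb had one in intron 2 (63.2 and 79.9), Gpd1 in intron 2 (61.8 and 76.9), Pgk1 in intron 4 (62.5 and 68.2) and Fbp2 in intron 1 (48.7 and 69.0). Aldoa had one 7236 bp upstream in EDL (70.2 and 64.0). In these genes both lists gave middle to high ranks. For Pkm in intron 3 (63.2 and 40.0) and Ppp1r3a 42951 bp past the TSS (58.7 and 15), the EDL peak stood well above the Quad one. The remaining 6 regions, of Hk1, Pfkfb1, Pgk1, Ppp1r3a and 2 of Ppp1r3c, were below percentile 50 in both lists.

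**Figure D5:**
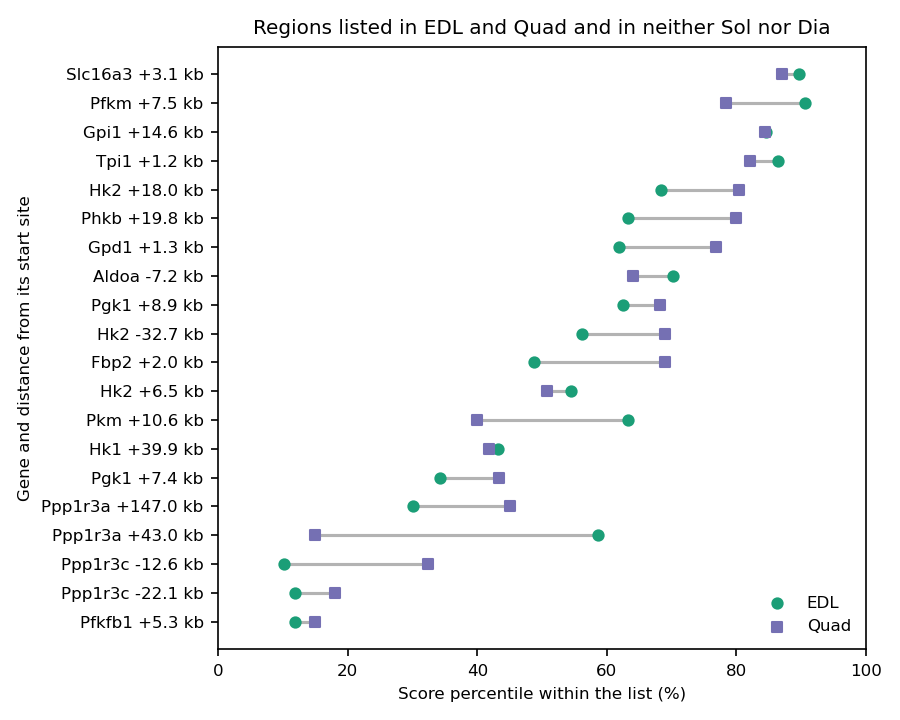
Score percentiles within the EDL and Quad lists (x axis, percent) of the 20 non-promoter regions found in these lists and in neither Sol nor Dia, labelled by gene and mean distance of the peaks from the TSS (y axis). Slc16a3, Pfkm, Gpi1 and Tpi1 sit highest, each at percentile 78.4 or higher in both lists.

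Of the 14 regions found in Sol only, 2 reached percentile 50 (14.3%, against 8.87% of all 4376 such regions). Among regions of a single fast list, 3 of 8 found in EDL only reached it (37.5%, against 10.3%) and 8 of 22 found in Quad only (36.4%, against 13.5%). Each region was ranked in the list that defined it, so these shares do not set the muscles against each other. They rest on few regions, some of the same gene. In EDL they included regions of Gyg at percentiles 50.7 and 52.5, and in Quad regions of Ugp2 at 71.9 and 63.0. Some of these lay close to a peak of another list that the joining at 1 bp kept apart. A Quad-only region of Phkb (84.0) lay 73 bp from an EDL peak, and an EDL-only region of Gyg (50.7) lay 107 bp from a Dia peak. In Sol one lay in intron 2 of Gys1, 3141 bp past the TSS, at percentile 89.2 with 156 inferred tags, and the nearest peak of EDL, Quad or Dia was at least 3138 bp away. The other, at the transcript end of Ppp1r3c, stood at 51.0. The one region in Sol and Dia only, near Slc16a1, stood at 41.6 in Sol and 20 in Dia. Gys1 also had a peak in intron 8 in all 4 lists, at 91.0, 84.4, 93.6 and 57.6 in EDL, Quad, Sol and Dia, and its Sol-only peak was thus the second strong intronic site of the gene in that muscle.

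By mean percentile the 5 highest non-promoter regions included this Gys1 peak and the first-exon region of Gbe1 (88.0 in EDL, 93.4 in Quad and 85.6 in Sol). The others were a Pygm peak in intron 1 in EDL alone (92.5), a peak 1711 bp upstream of Pygm in Quad alone (89.8), and an intronic region of Pfkfb3 found in all 4 lists at 90.8, 94.3, 93.3 and 82.3. The mean was taken over the lists that held a peak. For Pygm, the phosphorylase lost in McArdle disease, neither of these peaks was listed in the other fast muscle. The nearest Quad peak lay 589 bp from the EDL one, and the nearest EDL peak 1334 bp from the Quad one.

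Other regions were listed in EDL, Quad and Sol but at unequal rank, and this comparison was chosen after values were seen. The pathway had 37 such shared non-promoter regions. In 5 of them both EDL and Quad stood at least 15 percentile points above Sol (13.5%, against 13.5% of all 10594 shared regions), and in 2 both stood that far below Sol (5.41%, against 5.64%). The pathway's shared regions thus leaned to either side about as often as shared regions in general. About 18 kb upstream of Ldha a region stood at 86.9, 77.9, 27.7 and 25 in EDL, Quad, Sol and Dia, with 144, 84 and 56 inferred tags in the first 3. In Pfkfb3, 24058 bp upstream of the nearest TSS in EDL, a region stood at 85 in EDL, 90.1 in Quad and 26.2 in Sol, and was not listed in Dia. Phkg1 had a region in intron 4 at 73.9, 74.6 and 3.33, without a Dia peak, and one in intron 1 at 78.8, 83.3, 26.2 and 51.6. The fifth was in intron 1 of Gbe1, 7060 bp past the TSS in EDL, at 75.4, 75.2, 39.3 and 60. In the other direction, a second region in that intron of Gbe1, 38115 bp past the TSS in EDL, stood at 65.1, 45.0, 80.8 and 60, and a region 37774 bp upstream of Slc16a1 in EDL at 37, 25.8 and 69.9, without a Dia peak. Gbe1 thus held a region of each kind in the same intron.

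The most non-promoter peaks were named for Slc16a1, which had 21 non-promoter peaks over the 4 lists (4, 6, 5 and 6 in EDL, Quad, Sol and Dia), Ppp1r3a 20 (6, 8, 4 and 2) and Pfkfb3 20 (5, 6, 6 and 3). Gbe1 had 18 (5, 4, 5 and 4) and Ugp2 17 (3, 6, 4 and 4). At 20000 peaks per list Slc16a1 kept 2, 1, 5 and 6, which made it the gene that leaned most to Sol and Dia, and Ppp1r3a kept 3, 0, 1 and 1. No non-promoter peak was listed for Pfkl, Aldoc, Gapdh, Pgam1, Eno3 or Pfkfb2. Pfkp and Pygb had 1 each, Hk1, Aldoa, Gpd1 and Fbp2 had 2 each, and all other genes had between 3 and 12.

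A wider list of 55 genes of glucose and glycogen metabolism outside the 37 had fewer open promoters than the 37. A promoter peak was present for 33, 37, 33 and 35 in EDL, Quad, Sol and Dia (60%, 67.3%, 60% and 63.6%), and for 28 in all 4 lists (50.9%), and 49 had any peak. These shares lay between those of the 37 and those of all protein-coding genes, and Dia was not the lowest here. Non-promoter peaks numbered 63, 96, 53 and 35, and at 20000 peaks per list 35, 44, 30 and 33, or 2.98, 3.87, 2.58 and 2.95 per 1000. Gpd2, the mitochondrial partner of Gpd1, had 5, 5, 0 and 0, and was picked after its values were seen. Pdk4, which switches off pyruvate oxidation, had promoter percentiles of 92.9, 93.9, 96.8 and 89.3.

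Promoter windows from RefSeq, 250 bases before to 50 after a start, were found for 36 of the 37 genes, 54 windows in all, and not for Gpd1. ACGTG was in 24 of the 54 (44.4%), in 20 genes, against 20.9% of 21263 windows of protein-coding genes. Within genes that had a promoter peak in all 4 lists it was in 20 of 38 (52.6%), against 26.5% of 7146, with median GC contents of 61.8% and 61.3%. Windows of one gene can overlap, so they are not independent. CACGTG was in 14.8% of the pathway's windows against 7.84%, in Ldha, Pfkm, Pfkfb2, Pfkfb3, Ppp1r3c, Slc16a1, Fbp2 and Gyg. The MEF2 site was in 3 windows (5.56%, against 1.66%), of Pgam2, Ppp1r3a and Pfkfb1. AAGGTCA was in 5.56% against 4.08%, GGGCGG in 51.9% against 46.2% and TGGAAA in 16.7% against 19.3%. Within genes that had a promoter peak in all 4 lists, CACGTG was in 15.8% against 10.2% and MEF2 in 2.63% against 1.01%, while the other 3 turned round, with AAGGTCA in 2.63% against 2.81%, GGGCGG in 52.6% against 67.2% and TGGAAA in 18.4% against 15.6%.

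In windows of 200 bases at the highest peak of each non-promoter region, ACGTG was in 24 of 119 (20.2%, against 10.9% of 42117), at a median GC content of 51.0% in both. CACGTG was in 6.72% against 3.14%, MEF2 in 7.56% against 4.55% and AAGGTCA in 8.4% against 5.67%. GGGCGG was in 10.9% against 9.91% and TGGAAA in 10.9% against 20.6%. In the 20 regions found in EDL and Quad only, ACGTG was in 6 (30.0%, against 10.3% of 4032), of Hk1, Hk2, Gpd1, Pfkm and Phkb. There CACGTG was in 3 (15%, against 2.78%), of Hk1, Hk2 and Pfkm, and MEF2 in none (against 5.8%). The Pfkm match lay at least in part in the portion of the EDL peak left out of the stretch printed above. AAGGTCA was in 3 (15%, against 6.72%), TGGAAA in 2 (10%, against 18.8%) and GGGCGG in none (against 7.42%). These are matches of letters and do not show that a factor was bound.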

How the data were processed

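ATAC-seq was measured in 4 muscles, with 1 list each. The authors aligned 42-bp read pairs to mm10 with Bowtie2, called peaks of fixed width per library with HOMER and annotated each to its nearest gene, per the labels and the methods of the study. The Tn5 offset and any removal of mitochondrial reads are not given in the sources used here. The deposited peak score is the authors' tag count scaled by library size, and the distance and annotation columns are theirs. Peaks were 208, 188, 206 and 232 bp wide in EDL, Quad, Sol and Dia.

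Scores were ranked within each list. Below a score of 10 they were whole multiples of a step (100.0% within 0.06 tag), which gave inferred tags if scores were scaled to 10 M (mega) tags per library. A peak missing from a list was not called there, where its signal can fall short of a call without being absent. The lowest-scored peak that was called had 34, 25, 32 and 36 inferred tags in EDL, Quad, Sol and Dia. Regions were joined at 1 bp of overlap. The background for promoters was 21887 protein-coding genes. Ratio intervals are exact binomial (95%). No test was run between muscles. Python 3.11.15, pandas 2.3.3, scipy 1.17.1 and pysam 0.24.0 were used, and the ratios, steps and joining were checked on simulated data. The members and gene lists were chosen with earlier results of these data known. Genes were named if their promoter peak was missing from a list, if they were among the 5 largest ratios in a direction (EDL or Quad against Sol), if they were among the 5 with most non-promoter peaks, or if they had a region with a muscle pattern at percentile 50 or over. The 5 non-promoter regions highest in mean percentile and pairs of isoforms were named too. Alternatives changed the list length, the promoter definition, the percentile base, the scaling, the fold limit and the overlap rule.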

Additional observations from a re-analysis of the deposited data

How the results depend on the processing

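No paired analysis was possible because each muscle had 1 library. Of 72 alternative values for 20 results, 52 stayed close to the reported one. The number of genes with a promoter peak ran from 21 to 32 under every alternative tried. The number of regions in EDL and Quad only was 18 at 50% reciprocal overlap (13.5%, against 7.92% of all regions). It was 21 when regions within 500 bp were joined (18.9%, against 10.1%) and 14 at 20000 peaks per list (15.7%, against 7.04%). Ranked among promoter peaks only, the median promoter percentile was 57, 67.8, 64.7 and 46.5 in EDL, Quad, Sol and Dia. Among the top 10000 peaks the non-promoter peaks numbered 29, 28, 19 and 14 in EDL, Quad, Sol and Dia, and among the top 20000 they numbered 49 in Quad; these counts fall because fewer peaks enter. Genes 1.5-fold higher in EDL than in Sol numbered 1 with summed promoter peaks, where both EDL peaks of Ldha counted, and 1 by a percentile difference of 15. Genes higher in Sol than in EDL numbered 0 at a limit of 2-fold and 4 by percentile difference, and for Quad over Sol also 0 and 4. Genes higher in Sol than in Quad numbered 1 without scaling, where Ugp2 was lost, 1 at 2-fold and 1 by percentile difference. Shares of all genes under these alternatives were not computed, so the gene counts stand without a background. Regions in Sol and Dia only numbered 0 at reciprocal overlap (against 1.42% of all regions) and 2 at 20000 peaks (2.25%, against 4.21%). Beyond the construction of each setting the cause was not tested. The lack of replicates and the separate threshold of each library limit every difference in presence.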
